A study of Rattus norvegicus with 6 samples.

Results

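The genes described here encode heat shock proteins and other molecular chaperones. They were taken from the deposited gene table by symbol: every row starting with Hspa, Hspb, Hspd, Hspe, Hsph, Hsp90, Dnaja, Dnajb or Dnajc, together with Tcp1 and the subunits Cct2 to Cct8 of the cytosolic chaperonin. The rule found 95 of the 23091 rows, with 82 different symbols. Cct6a and Cct6b were taken as Cct6, and Cct8l1, a relative with 19 counts over all samples, was left out. The cells were rat marrow mesenchymal stem cells of genotype WT, the stromal progenitors that grow attached in culture, and every sample spent 7 days in neural differentiation media. In 3 samples, named CK, the media held the solvent DMSO, and in 3 samples, named CYSP, the media held the treatment of that name, whose letters the labels do not spell out. Nothing in the labels says that the 3 samples of a group came from separate cultures or animals, so the p-values here speak only for the variation among these 6 samples, and that variation may be technical.

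Chaperones bind unfolded or partly folded proteins and help them fold, assemble, cross membranes or enter degradation. HSP70 proteins bind short exposed stretches in a cycle driven by ATP, J-domain proteins of the DNAJA, DNAJB and DNAJC families start that cycle and bring the substrate, and HSP110 proteins reset it by exchanging the nucleotide. HSP90 acts later, on kinases, steroid receptors and other near-native clients, small heat shock proteins hold unfolded proteins without ATP, and chaperonins enclose a protein in a chamber. The cytosol, the endoplasmic reticulum (ER) and the mitochondria each have their own set. Heat shock factor 1, encoded by Hsf1, drives the stress-induced cytosolic genes, and the unfolded protein response drives the ER genes.

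The regulatory sequences of the best known of these genes carry 2 classical elements, the heat shock element and the ER stress element, and stretches that hold them are shown because each is the classical element of a response described below. The sequences are RefSeq's, build GRCr8, from the 250 bases before each gene's annotated start. Such a window was found by symbol for 59 of the 72 tested members. The heat shock element was searched as the 3 repeats GAA, TTC and GAA with 2 bases of any kind between neighbours, and the ER stress element as CCAAT and CCACG with 9 bases of any kind between them, each on both strands. The 3 stretches with the heat shock element come from Hsph1 (chr12:10427268-10427367, plus strand), Hspa8 (chr8:50080397-50080496, plus strand) and Hspe1 (chr9:64084256-64084285, plus strand), with the matching letters in capitals. In Hsph1 and Hspa8 the match is on the other strand, so the capitals read TTC, GAA and TTC.
Hsph1: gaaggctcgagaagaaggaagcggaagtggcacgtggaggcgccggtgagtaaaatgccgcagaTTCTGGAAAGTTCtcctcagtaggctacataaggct
Hspa8: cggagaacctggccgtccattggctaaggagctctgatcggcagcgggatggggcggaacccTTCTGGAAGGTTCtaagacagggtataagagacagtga
Hspe1: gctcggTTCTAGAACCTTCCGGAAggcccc
The 3 stretches with the ER stress element come from Hspa5 (chr3:38452916-38453015, plus strand), Hsp90b1 (chr7:23012322-23012421, minus strand) and Dnajc3 (chr15:102432478-102432577, plus strand). In Hsp90b1 the capitals read as the element's complement on the other strand.
Hspa5: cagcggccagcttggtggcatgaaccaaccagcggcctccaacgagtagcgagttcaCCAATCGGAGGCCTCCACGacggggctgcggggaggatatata
Hsp90b1: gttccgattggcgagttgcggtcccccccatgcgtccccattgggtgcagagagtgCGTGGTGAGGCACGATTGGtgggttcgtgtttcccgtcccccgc
Dnajc3: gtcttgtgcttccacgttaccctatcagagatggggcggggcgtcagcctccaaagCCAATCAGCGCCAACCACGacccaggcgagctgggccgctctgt
In Hspe1 the capitals are 2 overlapping matches that begin 65 and 60 bases before its start. The same genome positions lie 237 and 242 bases before the start of Hspd1, which is read in the opposite direction, so both genes share the element. The windows of Hspa8 and Hsp90b1 each hold a second match farther out, 213 and 176 bases before the start, that is not shown. The heat shock element with 3 repeats was found in 4 member windows, those of Hsph1, Hspa8, Hspd1 and Hspe1 (2 of 32 cytosolic and nuclear windows and 2 of 7 mitochondrial ones), and in 0.597% of 27457 rat promoter windows of this length. The ER stress element was found in the 3 member windows shown, out of 13 windows of ER genes, and in 0.0765% of all windows. A match is a description of letters, not a measured binding site.

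Total counts per sample lay between 15060933 and 17244700. Changes are given as log2 fold changes of CYSP over CK with their standard error (SE), from edgeR's quasi-likelihood test over all 12623 genes that passed its count filter, with Benjamini-Hochberg adjusted p-values and a threshold of 0.05. Values per sample are CPM, counts relative to the library's size as scaled by edgeR's TMM factors, in the order of replicates 1, 2 and 3. Levels of different genes are compared in FPKM, which is also divided by gene length. Of the 8 marrow stromal markers examined, all had counts in both groups, 4 were higher and 3 lower in CYSP. Their summed level lay between 4057 and 4126 CPM in CK and between 2949 and 3012 CPM in CYSP. Of 8 macrophage and leukocyte markers 7 were lower, and their summed level lay between 864 and 984 CPM in CK and between 402 and 407 CPM in CYSP, with none at 0. The part of these marker changes in the differences below was not tested. In bulk samples, fewer cells of a type and less RNA per cell cannot be told apart.

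Of the 95 chaperone rows, 72 were tested, 11 had counts under the filter and 12 had no count. Of the 72 tested, 30 were higher in CYSP, 25 were lower and 17 did not pass the test. The called share was 76.4% of the members against 76.1% of all genes tested, with 38.2% of all genes higher and 37.8% lower. The groups did not overlap in 55 of the 72 (76.4%) against 77% of all genes tested. Most of the changes were small. Only 6 members rose and 5 fell by at least 2-fold, 8.33% and 6.94% of those tested, where 15.2% and 12.7% of all genes did. The median absolute log2 fold change was 0.33 for the members and 0.53 for all genes tested, and the median with its sign was 0.01 for the members and 0.00 for all genes. With 0.2 assumed as the biological coefficient of variation in place of the common value of 0.0393 estimated here, 10 members were higher and 8 lower. With library size as the only scaling the split was 24 higher and 31 lower, and by limma on log2(FPKM + 1) 23 higher and 29 lower. All genes tested turned the same way, from 4828 higher and 4772 lower to 4345 and 5290 with library size only and to 3968 and 5049 by limma.

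**Figure D1:**
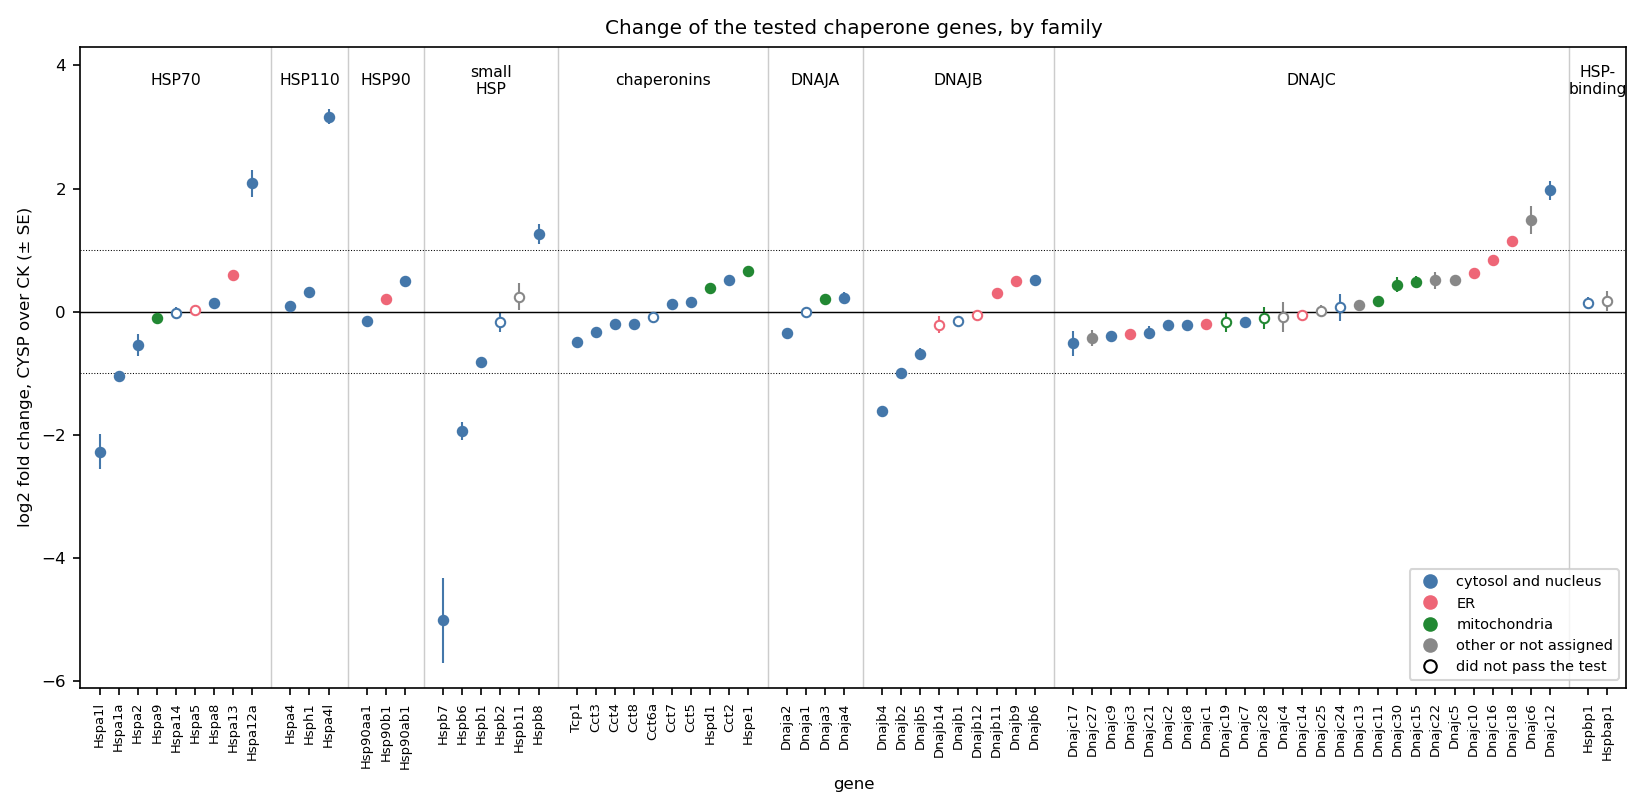
Log2 fold change of CYSP over CK (vertical axis, with its SE) for the 72 tested chaperone genes, grouped by family and coloured by compartment. Open circles did not pass the test, and dotted lines mark 2-fold. Most points lie between those lines, 6 lie above the upper line (Hspa4l, Hspa12a, Dnajc12, Dnajc6, Hspb8 and Dnajc18), and the lowest is Hspb7 at -5.01, a fitted value that rests on 2 counts in CYSP.

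Levels were dominated by a few genes. Per length, the 10 highest members in CK made up 64.6% of the summed chaperone FPKM there and 66.7% in CYSP, and 9 of them were also among the 10 highest in CYSP. Hspa8, the constitutive cytosolic HSP70, was the highest in both groups (726, 734 and 740.2 FPKM in CK and 760.0, 772 and 754 FPKM in CYSP). The 23 tested members with a mean of at least 50 FPKM over both groups had log2 fold changes from -0.81 (Hspb1) to 0.67 (Hspe1). That mean moves with the change itself: Dnajb4, with 56.3 FPKM in CK and 17.3 FPKM in CYSP, fell by more than 2-fold and lies under it only through its decrease. The summed chaperone FPKM was 4400.2 ± 21.6 in CK and 4458 ± 49.7 in CYSP (SD, n = 3 per group). That was 1.11%, 1.11% and 1.10% of all FPKM in the CK samples and 0.949%, 0.971% and 0.945% in the CYSP samples. The direction depended on the unit: the members made up 1.073%, 1.078% and 1.078% of all counts in CK and 1.097%, 1.119% and 1.097% in CYSP, and their summed CPM was 10442, 10467 and 10483 in CK and 11353, 11477 and 11277 in CYSP.

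The cytosolic HSP70 genes went in different directions. Hspa1a, the stress-inducible HSP70, had 66.8, 69.7 and 73.9 CPM in CK and 33.2, 35.8 and 33.2 CPM in CYSP, without overlap (log2 fold change -1.04, SE 0.061, adjusted p = 1.1e-26). Hspa1l, a relative of the inducible genes best known from testis, had 4.4, 4.46 and 4.47 CPM in CK and 1.03, 0.608 and 1.09 CPM in CYSP (log2 fold change -2.27, SE 0.28, adjusted p = 2.54e-11). In RefSeq the spans of Hspa1a and Hspa1l overlap, and the row called Hspa1a carries a description naming the near-identical copy 1B, so reads of these genes may not be told apart. Hspa2, another HSP70 with a main role in testis, was lower in each CYSP sample as well, with 6.04, 6.34 and 6.4 CPM in CK and 4.43, 3.65 and 4.85 CPM in CYSP (log2 fold change -0.54, SE 0.18, adjusted p = 0.00516). By contrast Hspa8 rose slightly, with 1578, 1594 and 1609 CPM in CK and 1758, 1769.6 and 1734 CPM in CYSP (log2 fold change 0.14, SE 0.023, adjusted p = 1.95e-07). The FPKM ratio of Hspa8 to Hspa1a was therefore 28.4 ± 1.16 in CK and 64.6 ± 2.48 in CYSP (SD, n = 3 per group). Hspa12a, a distant HSP70 relative, was the largest increase of the family, at a low level, with 1.81, 1.38 and 1.81 CPM in CK and 5.65, 7.77 and 8.06 CPM in CYSP (log2 fold change 2.09, SE 0.22, adjusted p = 4.35e-14). Hspa14, a ribosome-associated HSP70, did not pass the test, with a log2 fold change of -0.02 (adjusted p = 0.871), and Hspa12b, with 10 or fewer counts in each sample, was not tested.

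All 3 HSP110 genes, which encode the nucleotide exchange partners of HSP70, were higher in CYSP, by very different amounts. Hspa4l had 3.16, 3.96 and 3.14 CPM in CK and 29.3, 33.6 and 29.2 CPM in CYSP (log2 fold change 3.17, SE 0.12, adjusted p = 9.94e-38), the largest increase of any chaperone gene here. Hsph1 had 123, 115 and 122 CPM in CK and 151, 148 and 150.3 CPM in CYSP (log2 fold change 0.32, SE 0.041, adjusted p = 7.23e-11). Hspa4 had 328, 321 and 326 CPM in CK and 340.4, 353 and 353 CPM in CYSP (log2 fold change 0.10, SE 0.031, adjusted p = 0.00232). Each of the 3 was higher in every CYSP sample than in every CK sample. The Hspa4 call ended with library size only (log2 fold change 0.02, adjusted p = 0.578) and with limma on log2(FPKM + 1) (0.02, adjusted p = 0.614).

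The paired cytosolic HSP90 genes moved apart. Hsp90ab1, the constitutive beta form, rose, with 922, 921 and 918 CPM in CK and 1315, 1328 and 1284 CPM in CYSP (log2 fold change 0.51, SE 0.025, adjusted p = 2.96e-31). Hsp90aa1, the stress-inducible alpha form, fell, with 614, 620.3 and 611 CPM in CK and 538, 567 and 554 CPM in CYSP (log2 fold change -0.15, SE 0.028, adjusted p = 1.07e-06). Neither gene's groups overlapped. The FPKM ratio of the beta to the alpha form was 1.65, 1.63 and 1.65 in the CK samples and 2.69, 2.58 and 2.55 in the CYSP samples. The HSP90 family, with the ER member Hsp90b1, made up 22.3% ± 0.159 of the summed chaperone FPKM in CK and 24.9% ± 0.227 in CYSP, a difference of 2.59 percentage points (SD, n = 3 per group). An exact two-sided permutation test gave p = 0.1, the smallest that 3 samples against 3 allow. Further rows named Hsp90aa1 and Hsp90ab1 held at most 2 counts in a sample.

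**Figure D2:**
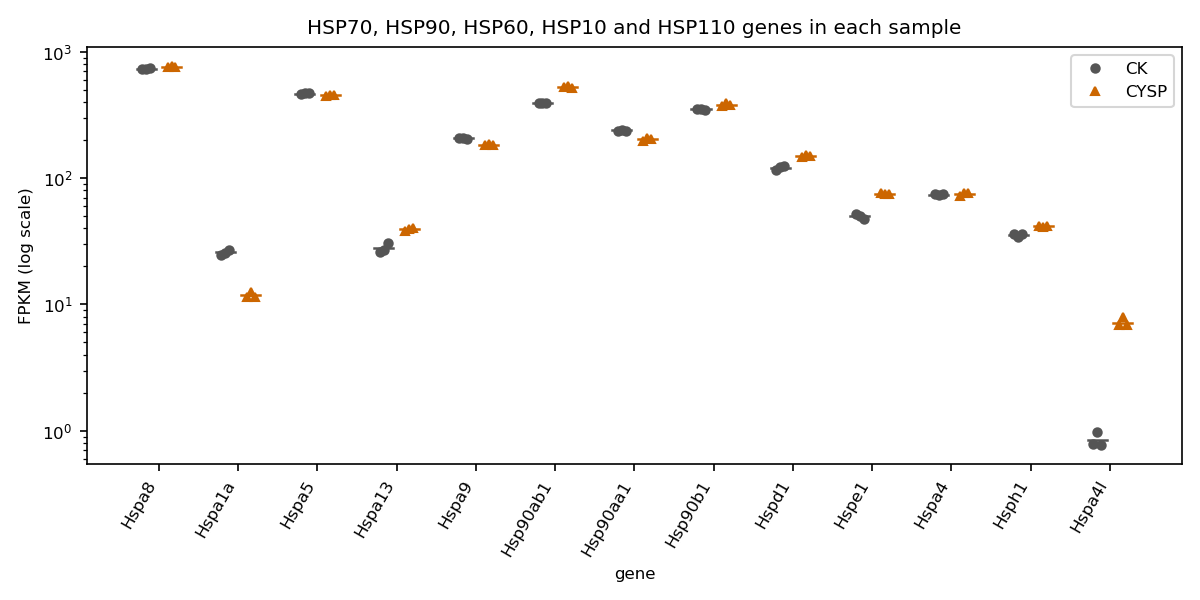
FPKM of 13 genes (vertical axis, log scale) in each CK sample (circles) and each CYSP sample (triangles), with the group mean as a bar. Hspa8 is the highest in both groups, Hsp90ab1 lies higher and Hsp90aa1 lower in CYSP, and the widest gap is that of Hspa4l.

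All 13 ER chaperone genes were tested. Of them 7 were higher in CYSP, 2 were lower and 4 missed the threshold (38.2% higher and 37.8% lower among all genes tested). Hspa5, which encodes BiP, the ER's main HSP70, did not pass, with 1161, 1177 and 1184 CPM in CK and 1192, 1205 and 1202 CPM in CYSP (log2 fold change 0.03, SE 0.024, adjusted p = 0.244). Its CYSP values all lay above its CK values on this scale, but its log2 fold change was -0.05 with library size only (adjusted p = 0.0461) and -0.05 by limma on log2(FPKM + 1) (adjusted p = 0.0454). Its direction thus turned with the scaling. Hsp90b1, which encodes GRP94, the ER's HSP90, rose, with 1084, 1066 and 1061 CPM in CK and 1225, 1266 and 1221 CPM in CYSP (log2 fold change 0.21, SE 0.025, adjusted p = 5.59e-12). Hspa13, a small ER-associated HSP70, rose more, with 95.2, 99.99 and 101 CPM in CK and 156, 144 and 145 CPM in CYSP (log2 fold change 0.59, SE 0.043, adjusted p = 1.15e-21).

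The ER J-domain genes included both larger and opposite changes. Dnajc18, an ER membrane protein, rose by more than 2-fold, with 15.3, 17.1 and 17.4 CPM in CK and 37.6, 34.7 and 37.8 CPM in CYSP (log2 fold change 1.15, SE 0.083, adjusted p = 2.02e-21). Dnajc16, another ER J-domain protein, had 16.6, 14.3 and 16.8 CPM in CK and 28.9, 29.1 and 27.3 CPM in CYSP (log2 fold change 0.84, SE 0.09, adjusted p = 1.67e-13). Dnajc10, a reductase that removes wrong disulfide bonds, rose as well (log2 fold change 0.64, adjusted p = 8.5e-29). The BiP partners Dnajb9 and Dnajb11 rose too. Dnajb9 had 24.3, 24.1 and 22.9 CPM in CK and 33.6, 34 and 33.3 CPM in CYSP (log2 fold change 0.50, SE 0.077, adjusted p = 1.91e-08). Dnajb11 had 124, 129 and 132 CPM in CK and 161, 161 and 153 CPM in CYSP (log2 fold change 0.30, SE 0.04, adjusted p = 2.1e-10). In each of these 5 genes every CYSP sample lay above every CK sample. Dnajc3, a BiP partner that also inhibits the kinase PERK, went the other way, with 84.6, 79.8 and 83.5 CPM in CK and 63.7, 65.5 and 64.4 CPM in CYSP (log2 fold change -0.36, SE 0.051, adjusted p = 1.81e-09). Dnajc1 was the other ER member to fall (log2 fold change -0.19, adjusted p = 0.00271), while Dnajb12, Dnajb14 and Dnajc14 did not pass. With library size only, 7 ER members were higher and 6 lower, and by limma on log2(FPKM + 1) 7 and 4. Of the 3 genes whose printed stretches hold the ER stress element, Hsp90b1 was higher, Dnajc3 was lower and Hspa5 did not pass.

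The ER genes' share of the summed chaperone FPKM was 24.7% ± 0.103 in CK and 25.6% ± 0.0896 in CYSP (SD, n = 3 per group; exact two-sided permutation p = 0.1, the smallest possible). Of 21 other genes of ER folding and the unfolded protein response, 9 rose, 9 fell and 3 did not pass. For all genes tested the shares were 38.2% higher and 37.8% lower. Among those higher were Sdf2l1, a BiP-associated factor (log2 fold change 1.08), P4hb, a protein disulfide isomerase (0.94), and Canx, the lectin chaperone calnexin (0.60). Among those lower were Serpinh1, the collagen chaperone also known as HSP47 (-1.69), Ddit3, the stress factor CHOP (-1.42), and Herpud1, a part of ER-associated degradation (-1.33). Serpinh1 had 2431, 2385 and 2426 CPM in CK and 739, 739 and 771 CPM in CYSP.

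Of 12 mitochondrial rows 9 were tested. Of these 6 were higher in CYSP, 1 was lower and 2 missed the threshold (38.2% higher and 37.8% lower among all genes tested). Hspd1 and Hspe1, the HSP60 and HSP10 subunits of the mitochondrial folding chamber, were both higher. Hspd1 had 255, 268 and 272 CPM in CK and 343, 351 and 347 CPM in CYSP (log2 fold change 0.39, SE 0.032, adjusted p = 1.59e-18). Hspe1 had 27.4, 26.1 and 24.7 CPM in CK and 42.7, 41 and 40.5 CPM in CYSP (log2 fold change 0.67, SE 0.072, adjusted p = 2e-13). Per length Hspd1 stayed the higher of the pair, with an FPKM ratio to Hspe1 of 2.22, 2.44 and 2.59 in the CK samples and 1.92, 2.03 and 2.00 in the CYSP samples. Hspa9, mortalin, the HSP70 of the matrix and the import motor, was the member that fell, with 634, 644 and 631 CPM in CK and 597, 599 and 592 CPM in CYSP (log2 fold change -0.09, SE 0.027, adjusted p = 0.00138). The gene spans of Hspd1 and Hspe1 overlap in RefSeq, although the starts used for the windows above point away from each other. Reads from the overlap cannot be told apart if strand was not used in counting.

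The mitochondrial J-domain genes rose or did not pass. Dnajc15, a regulator of the import motor, rose by 0.49 on the log2 scale (adjusted p = 3.37e-06), and Dnajc30 by 0.44 (adjusted p = 0.00141). Dnaja3, a partner of mortalin, had 38.6, 35.2 and 33.5 CPM in CK and 44.8, 43.7 and 35.8 CPM in CYSP, with overlapping groups (log2 fold change 0.21, SE 0.072, adjusted p = 0.00626). The calls of Dnaja3 and Dnajc11 (0.18) ended with library size only (adjusted p = 0.0915 and 0.158), with limma on FPKM and without CK replicate 3, and that of Dnaja3 also without CYSP replicate 1 or 2. Dnajc19 (-0.17) and Dnajc28 (-0.09) did not pass, though Dnajc19 was lower by limma on log2(FPKM + 1) (adjusted p = 7.46e-04). The mitochondrial share of the summed chaperone FPKM was 10.2% ± 0.0691 in CK and 10.8% ± 0.0621 in CYSP (SD, n = 3 per group; exact two-sided permutation p = 0.1, the smallest possible). With CPM summed in place of FPKM the share was lower in CYSP, by -0.12 percentage points.

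Of 17 other genes of mitochondrial import and protein quality control, 11 rose, 1 fell and 5 did not pass. Among all genes tested, 38.2% were higher and 37.8% lower. Among those higher were Hscb, a J-domain protein of iron-sulfur cluster transfer (log2 fold change 0.91), Clpb, a disaggregase (0.81), and Grpel1, the nucleotide exchange factor of mortalin (0.64). The protease gene Yme1l1 was the one that fell (-0.18).

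The subunits of the cytosolic chaperonin, the TRiC or CCT ring that folds actin and tubulin, did not move as a unit. Of 8 tested subunit genes 3 rose, 4 fell and Cct6a did not pass (38.2% higher and 37.8% lower among all genes tested). Cct2 had 219.8, 223 and 238 CPM in CK and 328, 315 and 327 CPM in CYSP (log2 fold change 0.51, SE 0.033, adjusted p = 7.64e-24), whereas Tcp1, the alpha subunit, had 193, 209 and 202 CPM in CK and 143, 144 and 140.4 CPM in CYSP (log2 fold change -0.50, SE 0.038, adjusted p = 2.67e-20). Their groups did not overlap in either case. In FPKM, Cct2 stood to Tcp1 at 1.21, 1.11 and 1.23 in the CK samples and at 2.41, 2.28 and 2.38 in the CYSP samples. Of the others, Cct3 had 185, 179.9 and 179.8 CPM in CK and 149, 143 and 141 CPM in CYSP (log2 fold change -0.33, SE 0.038, adjusted p = 1.5e-12). Cct4 had 214, 216 and 209 CPM in CK and 184, 187 and 184 CPM in CYSP (log2 fold change -0.20, SE 0.035, adjusted p = 4.18e-07). Cct8 had 187, 169 and 175 CPM in CK and 155, 154 and 155 CPM in CYSP (log2 fold change -0.19, SE 0.039, adjusted p = 7.25e-06). These 3 subunits were lower in every CYSP sample, while Cct5 and Cct7 were higher in every one in CPM.

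Cct5 had 249, 249 and 242 CPM in CK and 274, 280.1 and 272 CPM in CYSP (log2 fold change 0.16, SE 0.033, adjusted p = 1.47e-05), and Cct7 had 183, 179 and 177 CPM in CK and 193, 196 and 202 CPM in CYSP (log2 fold change 0.13, SE 0.036, adjusted p = 0.000767). Both calls ended by limma on log2(FPKM + 1) (adjusted p = 0.0526 and 0.199), and the Cct7 call also with library size only (adjusted p = 0.211). Cct6a had 149, 146 and 158 CPM in CK and 149.7, 144 and 135 CPM in CYSP (log2 fold change -0.08, SE 0.041, adjusted p = 0.0737), with overlapping groups. It was lower, past the threshold, under the upper quartile scaling (adjusted p = 0.0266), with library size only (2.57e-04), without the filter (0.0473), by limma on log2(FPKM + 1) (0.00907) and without CK replicate 1, CK replicate 2 or CYSP replicate 1 (adjusted p = 0.0486, 0.0242 and 0.0213). The testis form Cct6b stayed under the filter. The highest subunit, Cct2 in each sample, stood 1.68, 1.73 and 1.76 times above the lowest in CK and 2.75, 2.64 and 2.73 times in CYSP. The summed level of the 8 subunits went from 730.5, 731 and 733 FPKM in CK to 685, 684 and 681 FPKM in CYSP. This fall depends on the unit. In CPM the summed levels of the groups overlapped and hardly differed. The median log2 fold change of all genes was -0.07 by limma on log2(FPKM + 1) and 0.00 in the main fit.

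**Figure D3:**
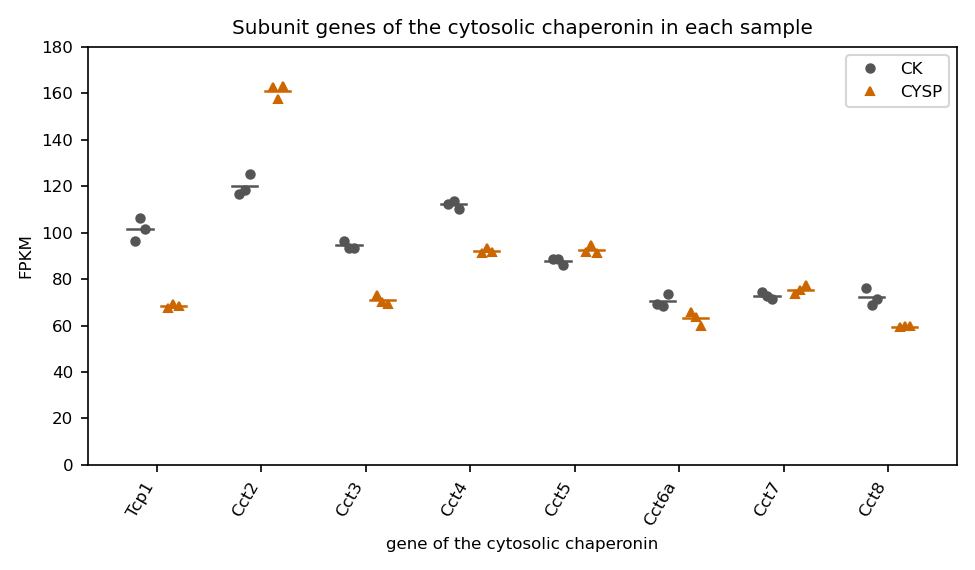
FPKM of the 8 tested subunit genes of the cytosolic chaperonin (vertical axis) in each CK sample (circles) and each CYSP sample (triangles), with the group mean as a bar. Cct2 rises from between 117 and 125 FPKM to between 157 and 163 FPKM, and Tcp1 falls from between 96.4 and 106 FPKM to between 67.6 and 69.1 FPKM.

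Among 11 genes that assist the chaperonin, the prefoldin subunits and related factors, 4 rose, 3 fell and 4 did not pass. Across all genes tested 38.2% were higher and 37.8% lower. Pfdn5 (log2 fold change 0.66), Mkks (0.49) and Pdcl (0.45) were the higher ones with the largest changes. Pdcl3 (-0.68), Pfdn1 (-0.25) and Txndc9 (-0.20) were lower. Pfdn1 and Pfdn5 encode 2 subunits of the same prefoldin complex, which hands actin and tubulin to the chaperonin.

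The small heat shock protein genes included the largest decrease of all, that of Hspb7. Hspb1, which encodes HSP27, an actin-associated protein and the highest of the family in FPKM, had 69.8, 71.5 and 72.9 CPM in CK and 39.5, 41.5 and 41.1 CPM in CYSP (log2 fold change -0.81, SE 0.057, adjusted p = 4.61e-22). Hspb6, which encodes HSP20 of smooth and cardiac muscle, had 13, 15.3 and 14.9 CPM in CK and 4.01, 3.65 and 3.55 CPM in CYSP (log2 fold change -1.94, SE 0.15, adjusted p = 1.34e-20). Hspb7, a heart and muscle member, had 1.97, 1.51 and 1.45 CPM in CK and 0, 0.135 and 0 CPM in CYSP. Its 3 CK samples summed to 83 counts and its 3 CYSP samples to 2, a ratio of 38 in favour of CK (95% Clopper-Pearson counting interval 10.2 to 319, which covers counting error only). None of the 3 genes overlapped between groups. Hspb8, which works with Bag3 in selective autophagy, was the exception, with 4.46, 3.39 and 4.65 CPM in CK and 10.5, 10.1 and 9.49 CPM in CYSP (log2 fold change 1.27, SE 0.16, adjusted p = 3.52e-11). Bag3 itself, named here after its values were seen, was lower (log2 fold change -0.43, adjusted p = 1.39e-08). Hspb2 did not pass (-0.17, adjusted p = 0.365), nor did Hspb11 (0.25), a protein of cilia. Hspb3 had no count and Hspb9 stayed under the filter.

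The family made up 2.27% ± 0.0549 of the summed chaperone FPKM in CK and 1.32% ± 0.025 in CYSP (SD, n = 3 per group; exact two-sided permutation p = 0.1, the smallest possible). The relative Cryab, alpha-B-crystallin, which the symbol rule does not take, had 9.14, 9.99 and 11.7 CPM in CK and 0.121, 0.135 and 0.205 CPM in CYSP (log2 fold change -6.00, SE 0.31, adjusted p = 8.16e-30). Its CYSP samples held 2, 2 and 3 counts, so the size of its fold change is uncertain. Its span overlaps that of Hspb2 in RefSeq. Of the small heat shock protein genes tested, 3 were lower, Hspb8 was higher, and Hspb2 and Hspb11 did not pass. All 4 smooth muscle markers, Acta2, Tagln, Cnn1 and Myh11, were lower. Their summed level lay between 7527 and 7739.9 CPM in CK and between 9.29 and 16 CPM in CYSP. No marker of the 4 was at 0 in either group. Their part in the decreases of Hspb1, Hspb6 and Hspb7 was not tested.

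Of the 5 tested cytosolic DNAJB genes, 3 fell, 1 rose and 1 did not pass (37.8% lower and 38.2% higher among all genes tested). Dnajb4, an HSP70 partner found at stress fibres and sarcomeres, had 81.7, 81.2 and 79.3 CPM in CK and 26.2, 25.6 and 27.1 CPM in CYSP (log2 fold change -1.62, SE 0.061, adjusted p = 1.42e-38). Dnajb2, which carries ubiquitin-binding motifs and is best known from neurons, had 40.7, 38.8 and 38 CPM in CK and 19.7, 19.3 and 19.9 CPM in CYSP (log2 fold change -0.996, SE 0.078, adjusted p = 8.1e-20). Dnajb5 had 29.9, 33.5 and 28.3 CPM in CK and 18.2, 22 and 17.1 CPM in CYSP (log2 fold change -0.68, SE 0.088, adjusted p = 1.42e-10). All 3 were lower in every CYSP sample. Dnajb6, a suppressor of polyglutamine aggregation, had 68.1, 74.1 and 70.8 CPM in CK and 96.6, 101 and 105 CPM in CYSP (log2 fold change 0.51, SE 0.049, adjusted p = 9.83e-16). Its FPKM ratio to Dnajb4 was 0.842 ± 0.0822 in CK and 3.43 ± 0.151 in CYSP (SD, n = 3 per group).

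Dnajb1, which encodes the classical HSP40 and is a marker of the heat shock response, had 33.2, 37.4 and 36.2 CPM in CK and 34.6, 28.8 and 32.8 CPM in CYSP, with overlapping groups (log2 fold change -0.15, SE 0.074, adjusted p = 0.0657). It was lower past the threshold under the upper quartile scaling (adjusted p = 0.0377), with library size only (0.00379), by limma on log2(FPKM + 1) (0.0174) and without CK replicate 1 or CYSP replicate 1 (0.0225 and 0.0229). Dnajb3, Dnajb7 and Dnajb13 had counts under the filter, and Dnajb8 had none. In the DNAJA family Dnaja1, the most abundant in FPKM, did not pass, with 119, 115 and 116 CPM in CK and 113, 123 and 114 CPM in CYSP (log2 fold change 0.00, SE 0.043, adjusted p = 0.987). Dnaja2, its paralog, had 129, 129.8 and 136 CPM in CK and 107, 100.21 and 102 CPM in CYSP (log2 fold change -0.35, SE 0.043, adjusted p = 1.88e-11). Dnaja4 had 16.8, 18.2 and 15.2 CPM in CK and 20.4, 19 and 19 CPM in CYSP (log2 fold change 0.22, SE 0.097, adjusted p = 0.0358), a call that ended with DESeq2 (adjusted p = 0.0789), without the filter (0.0525), under 2 of the 3 other scalings (0.0553 and 0.196), with limma on log2(FPKM + 1) (0.138), and without CK replicate 1, CK replicate 3 or CYSP replicate 1 (0.0684, 0.194 and 0.127).

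**Figure D4:**
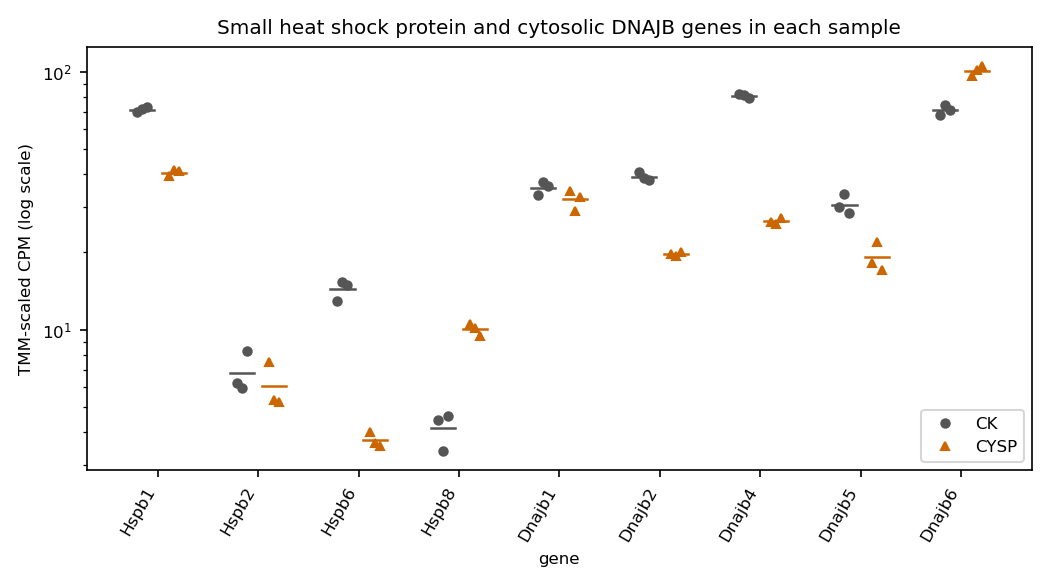
TMM-scaled CPM (vertical axis, log scale) of 4 small heat shock protein genes and 5 cytosolic DNAJB genes in each CK sample (circles) and each CYSP sample (triangles), with the group mean as a bar. Hspb1, Hspb6, Dnajb2, Dnajb4 and Dnajb5 lie lower in CYSP, Hspb8 and Dnajb6 lie higher, and the groups overlap for Hspb2 and Dnajb1.

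The DNAJC proteins share only the J domain and differ in place and task. Of 26 tested genes, 11 rose, 9 fell and 6 did not pass, near the shares among all genes tested (38.2% higher and 37.8% lower). The largest increases outside the ER were those of Dnajc12 and Dnajc6. Dnajc12, a partner of the aromatic amino acid hydroxylases that make monoamine transmitters, had 3.27, 4.27 and 3.56 CPM in CK and 12.5, 15.5 and 15.6 CPM in CYSP (log2 fold change 1.97, SE 0.15, adjusted p = 1.61e-20). Dnajc6, auxilin, which uncoats clathrin vesicles and is best known from neurons, had 2.99, 1.07 and 2.23 CPM in CK and 5.53, 6.82 and 5.67 CPM in CYSP (log2 fold change 1.497, SE 0.23, adjusted p = 2.78e-08). Neither gene's groups overlapped. Of 6 neuronal markers 3 were tested, of which 2 were higher and 1 lower. The summed level of the 6 lay between 12.1 and 13.5 CPM in CK and between 85.8 and 90.5 CPM in CYSP. Rbfox3 was at 0 in both groups and Nefl at 0 in CYSP. Syt1, under the filter, had 1 count over the CK samples and 36 over the CYSP samples. The higher ones past the threshold were Snap25 (mean 0.0201 CPM in CK and 48.8 CPM in CYSP) and Tubb3 (8.67 and 37.8 CPM). Map2 was the lower one (4.27 and 1.35 CPM). The markers' part in the increases of Dnajc12 and Dnajc6 was not tested. Dnajc5, the cysteine string protein of secretory and synaptic vesicles, rose too (log2 fold change 0.52, adjusted p = 9e-20). Dnajc22 rose as well (0.51, adjusted p = 0.000437). Dnajc13, an endosomal protein, rose by 0.11 on the log2 scale, but its call ended with library size only (adjusted p = 0.539) and with limma on FPKM (0.727).

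Of 8 tested DNAJC genes placed in the cytosol and nucleus, 6 fell, Dnajc12 rose and Dnajc24 did not pass. For comparison, 37.8% of all genes tested were lower and 38.2% higher. Dnajc9, a chaperone of histones, had 27.5, 31.6 and 31.6 CPM in CK and 22.2, 23.9 and 22.7 CPM in CYSP (log2 fold change -0.40, SE 0.082, adjusted p = 1.11e-05). Dnajc21 of ribosome assembly (-0.34), Dnajc2 of the ribosome-associated complex (-0.22), Dnajc8 of the spliceosome (-0.21) and the HSP70 and HSP90 partner Dnajc7 (-0.17) fell by less than 2-fold. Dnajc17, a splicing-related protein, had 4.74, 4.4 and 4.77 CPM in CK and 3.16, 4.05 and 2.53 CPM in CYSP (log2 fold change -0.51, SE 0.21, adjusted p = 0.023). Dnajc27, a protein with a Rab-like domain, had 12.6, 9.17 and 11.8 CPM in CK and 7.71, 9.39 and 7.99 CPM in CYSP, with overlapping groups (log2 fold change -0.43, SE 0.13, adjusted p = 0.00328). The Dnajc17 call ended with DESeq2 (adjusted p = 0.0535) and without CK replicate 1 or 3 or CYSP replicate 1 or 3 (adjusted p = 0.0504, 0.0517, 0.0555 and 0.142), and the Dnajc7 call without CK replicate 3 or CYSP replicate 3 (0.0519 and 0.151). Dnajc4 and Dnajc25 did not pass, Dnajc5b stayed under the filter and Dnajc5g had no count. Hspbp1, which inhibits and resets HSP70, and Hspbap1, a binding partner of HSP27, did not pass either (0.14 and 0.18).

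By compartment, cytosolic and nuclear members fell more often than they rose, with 13 higher, 21 lower and 7 not passing of 41 tested, and a median log2 fold change of -0.17. The ER members had 7 higher and 2 lower of 13 (median 0.21), and the mitochondrial members 6 higher and 1 lower of 9 (median 0.21). The shares of all genes tested were 38.2% higher and 37.8% lower. With library size only, 10 cytosolic and nuclear members were higher and 23 lower. The same scaling gave 7 and 6 in the ER and 4 and 1 in the mitochondria. The difference between compartments was not tested. Of 25 genes on the list of heat shock factors and cytosolic co-chaperones, 24 were tested, with 13 higher, 10 lower and 1 not passing. The higher ones were led by Fkbp5, an HSP90-binding partner of steroid receptors (log2 fold change 2.07), Bag4 (1.29) and Hikeshi, a carrier of HSP70 into the nucleus (0.93). The lower ones were led by Cryab, Bag2, an HSP70 co-chaperone (-1.34), and Unc45a, a myosin chaperone (-0.70). Hsf1 and Hsf2, named for their role rather than by the rule and after their values were seen, had log2 fold changes of -0.34 (adjusted p = 0.00148) and 0.17 (adjusted p = 0.039).

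The 4 genes whose windows hold the heat shock element with 3 repeats were all higher in CYSP, with log2 fold changes of 0.14 for Hspa8, 0.32 for Hsph1, 0.39 for Hspd1 and 0.67 for Hspe1. Of all 59 matched members 25 were higher, and Hspd1 and Hspe1 share 1 element, so the 4 genes stand for 3 separate stretches. Tested members without a window were not searched. Among them Hsp90aa1, Dnajb4, Dnaja2, Dnajc2 and Dnajc8 were lower, and Dnajc12, Dnajc11, Dnajc15, Dnajc22 and Hspa12a were higher. The shorter pair of GAA and TTC with 2 bases between them was found in 12 member windows and in 7.02% of all windows. Each of the 4 windows with 3 repeats also holds it. The genes with the pair went both ways: 7 rose, 3 fell and 2 did not pass. Those that fell were Hspb1, Hspb6 and Hspa9. The opposite pair, TTC and then GAA, was found in 9 member windows and in 7.23% of all windows, and 5 of those genes rose and 3 fell. The 250 bases before Hspa1a and Hsp90ab1 held no match to the element with 3 repeats, which says only that these letters are not in those windows.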

How the data were processed

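Messenger RNA of 6 samples was enriched on oligo(dT) beads after Trizol extraction, per the labels' protocols. The submitters' processing notes name fastp 0.18.0, HISAT2, StringTie 1.3.1 and RSEM without roles. For build, annotation, counting tool and strand use: not given in the sources used here. The deposited table gives raw counts and FPKM for each gene in each sample, per the file headers, with the authors' mean FPKM, log2 fold change, p-value and adjusted p-value, which were not used.

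Samples were grouped by title. Counts were tested with edgeR 4.0.16 in R 4.3.3 (filterByExpr, TMM, robust glmQLFit, glmQLFTest), adjusted over all 12623 genes tested; SE is the log2 fold change over the square root of F. Alternatives used DESeq2 1.42.0, limma 3.58.1, other scalings and filters (none, or 50 counts in 3 samples), glmTreat, assumed coefficients of variation of 0.2 and 0.4, a replicate block and each sample left out. The procedure was tested on simulated data. Between any 2 samples of a group counts differed by more than sampling noise. The limit that a count of 0 allows, 3 counts, was 0.174 to 0.199 CPM.

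Members and lists were chosen with earlier results of these data known. Per-sample values are given for fixed well-known members and, in each family, up to 4 per direction with the largest change among those past the threshold with at least 1 CPM in a group, and up to 3 genes per direction of each partner list by the same measure. Members outside this rule are given mostly by fold change and were chosen after their values were seen. Families and compartments were assigned by hand. For 10 symbols on several rows, the 13 further rows had at most 10 counts in a sample.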

Additional observations from a re-analysis of the deposited data

How the results depend on the processing

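In 16 alternatives, leaving aside the assumed coefficients of variation and glmTreat, 46 of the 55 called members kept their direction and side of the threshold wherever they were tested. The other 9 were Cct5, Cct7, Dnaja3, Dnaja4, Dnajc7, Dnajc11, Dnajc13, Dnajc17 and Hspa4. Hspa5 turned to -0.0518 with library size only, to -0.0518 by limma on log2(FPKM + 1) with and without the filter, and to -0.0519 with a pseudocount of 0.1, past the threshold there (adjusted p from 0.042 to 0.0461). The mitochondrial share turned to -0.12 percentage points with summed CPM. ER members lower were 6 with library size only and 4 in the limma fits, mitochondrial members lower were 2 in the limma fits, and members higher by at least 2-fold were 3 by limma on log2(FPKM + 1), with and without the filter. The cause was not tested.

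With an assumed coefficient of variation of 0.2, which replaces the estimated spread by a larger one, 10 members were higher and 8 lower. By compartment these were 4 and 8 in the cytosol and nucleus, 4 and 0 in the ER and 1 and 0 in the mitochondria, and partner genes were 12 and 9. With 0.4 the counts were 5 and 4 members, 4 and 4 cytosolic and nuclear, 0 and 0 in the ER, 0 and 0 in the mitochondria, and 2 and 5 partner genes. The 2-fold counts were 6 and 5 with 0.2, 5 and 4 with 0.4, and 4 and 4 with glmTreat.

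With the replicate number as a block 30 members were higher and 25 lower, and no member's call changed. Same-numbered samples did not deviate together across genes (correlations -0.000633, 0.0185 and -0.00885). These correlations cannot tell whether samples with the same number shared a culture, animal or batch. Low genes are limited by depth: untested members had at most 10 counts in a sample.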
